A study of Mus musculus with 42 samples.

Results

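The adipokines and adipocyte identity genes described here are Adipoq, Cfd, Retn, Lep, Rbp4, Pparg, Cebpa, Adrb3, Adig and Car3, a list of 10 genes taken by symbol out of the 48709 genes of the deposited count table. All 10 symbols were found. Their levels were read in aorta, liver and ear skin of K14-Rac1V12 mice, transgenic animals that express constitutively active Rac1, a small GTPase, under the promoter of keratin 14, which is used in basal keratinocytes, and that develop psoriasis-like skin disease. All mice carried this transgene, so the data hold no non-transgenic reference. At 14 weeks of age, after a run-in of 2 weeks on a diet lacking omega-3 fatty acids (OD), they were allotted at random to a diet with eicosapentaenoic acid (EPA), one with docosahexaenoic acid (DHA) or continued OD, each for 12 weeks. The stated dose of both fatty acids was 3.0 g per kg of diet, matched to 4 g per day in a person, and the dose text of the DHA diet names EPA and is read here as DHA. Both are marine omega-3 fatty acids; the DHA chain is longer and holds an additional double bond. Each tissue had 5 EPA, 5 DHA and 4 OD libraries, 42 in all, and the labels give 4 to 5 mice per group but no sex, no batch and no link between the tissues of a mouse.

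Adipocytes store triglyceride in lipid droplets and also secrete hormones. White adipocytes are the main source of adiponectin and leptin, while brown adipocytes burn fatty acids for heat through the uncoupling protein Ucp1. The nuclear receptor PPARγ, which binds fatty acids and their derivatives, and the transcription factor C/EBPα switch on each other and most adipocyte genes during differentiation. The mouse aorta is wrapped in perivascular fat, which around the thoracic part is of the brown type. The labels state that this fat was removed along the whole vessel before RNA was taken.

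Of the secreted products, Adipoq encodes adiponectin and lies on chromosome 16 (chr16:23146536-23158028, plus strand, up to 3 exons, GRCm38). Cfd encodes adipsin, the complement factor D protease (chr10:79890853-79892655, plus strand). Retn encodes resistin, which mouse adipocytes secrete (chr8:3655770-3660110, plus strand). Lep encodes the satiety hormone leptin (chr6:29060220-29073877, plus strand). Rbp4 encodes the retinol carrier of plasma, made mostly by hepatocytes and also by adipocytes (chr19:38116629-38125281, minus strand). Pparg (chr6:115360951-115490399, plus strand) and Cebpa (chr7:35119293-35121928, plus strand) encode the regulators named above, and hepatocytes also use Cebpa. Adrb3 encodes the β3-adrenergic receptor, through which noradrenaline starts lipolysis and heat production (chr8:27225776-27250616, minus strand). Adig encodes adipogenin, a small membrane protein of adipocytes (chr2:158502612-158508198, plus strand). Car3 encodes carbonic anhydrase 3, abundant in adipocytes, liver and skeletal muscle (chr3:14863512-14872523, plus strand). Pparg, Cebpa and Adrb3 each overlap an annotated antisense gene, and no source used here gives the strand setting of the counting. The partner of Adrb3, Gm45470, held 21 counts over the 14 aortas, against 404 for Adrb3 itself.

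RefSeq promoter windows, from 250 bases before to 50 bases after each start on GRCm38.p6, were found for 8 of the 10 genes, 11 windows in all. Adrb3 and Car3 had none in the table used. The windows of Adipoq, of the third listed start of Pparg, and of Adig are printed because these genes varied together across the aortas and because Pparg and Adig were the members called between DHA and OD. Capitals mark a match, on either strand, to the C/EBP motif ttgcnnaa, the nuclear receptor half-site aggtca, the TATA box tataaa or the CCAAT box. Adipoq is at chr16:23146286-23146585, Pparg at chr6:115421816-115422115 and Adig at chr2:158502362-158502661, all on the plus strand.
Adipoq: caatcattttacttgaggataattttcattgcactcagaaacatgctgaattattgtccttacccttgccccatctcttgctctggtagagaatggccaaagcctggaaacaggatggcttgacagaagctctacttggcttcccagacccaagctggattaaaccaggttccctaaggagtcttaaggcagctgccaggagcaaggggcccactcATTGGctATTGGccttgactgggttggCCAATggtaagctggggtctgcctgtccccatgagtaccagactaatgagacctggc
Pparg: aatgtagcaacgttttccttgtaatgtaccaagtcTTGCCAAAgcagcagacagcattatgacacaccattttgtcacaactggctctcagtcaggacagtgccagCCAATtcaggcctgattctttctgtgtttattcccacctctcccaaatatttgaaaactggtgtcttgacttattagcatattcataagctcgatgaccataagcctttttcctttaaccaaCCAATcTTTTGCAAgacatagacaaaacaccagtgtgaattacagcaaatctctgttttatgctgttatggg
Adig: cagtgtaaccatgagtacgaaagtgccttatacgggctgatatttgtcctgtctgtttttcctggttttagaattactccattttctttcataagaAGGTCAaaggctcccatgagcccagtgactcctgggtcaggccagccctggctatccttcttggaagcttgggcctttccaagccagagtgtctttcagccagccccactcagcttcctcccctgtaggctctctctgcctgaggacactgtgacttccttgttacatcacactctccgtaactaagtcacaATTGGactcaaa

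The Adipoq window held 3 CCAAT boxes, whose first printed bases lie at -34, -27 and -7 from the RefSeq start. The Pparg window held 2 C/EBP matches at -215 and -16, and 2 CCAAT boxes at -144 and -22. The Adig window held a half-site at -154 and a CCAAT box at 38. Among the 11 windows, 3 held the C/EBP motif (Lep, Pparg and Rbp4), 3 the half-site (2 of the Pparg starts and Adig), 3 the TATA box and 5 a CCAAT box. Of 32851 RefSeq promoter windows of the same length, 10.8% held the C/EBP motif, 16.3% the half-site, 13.6% the TATA box and 37.4% a CCAAT box. These are letter matches and say nothing of binding. The library kit counts the 3′ ends of transcripts, so counts from the 3 starts of Pparg were not told apart.

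Total counts ran from 179795 to 717508 per aorta, 343824 to 768532 per liver and 40157 to 220488 per ear skin. A level of 3 counts corresponds to 4.18 to 16.7 CPM (counts scaled to a common library total) in aorta, 3.90 to 8.73 CPM in liver and 13.6 to 74.7 CPM in skin. Levels below are CPM of all counts, scaled with the trimmed mean of M values (TMM) within each tissue, and they are not divided by gene length because the kit tags transcript ends. A filter for counts of about 10 left 9 members for testing in aorta (all but Lep) and 3 in liver and in skin (Cebpa, Car3 and Rbp4). The hepatocyte marker Alb, the plasma albumin gene, was counted outside the liver, with 69 to 204 counts in every aorta and 44 to 99 counts in every skin. Keratinocyte markers (7 of 7 detected) summed to 25998 to 37545 CPM in skin and smooth muscle markers (8 of 8) to 8382 to 15764 CPM in aorta, so markers of both labelled tissues were present. Xist, which is transcribed from the inactive X of females, exceeded 200 CPM in 3 libraries of each tissue, numbered EPA 1, EPA 5 and DHA 1 in all 3, and in no OD library. Sex is thus not balanced between the diets as far as Xist shows it, and its part in the diet differences was not tested beyond leaving these libraries out.

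Adipocyte genes marked the aorta. Adipoq ranged from 189 to 434 CPM over the 14 aortas with a median of 321. In the 14 skins it ranged from 0 to 50.5 CPM with 28 counts in total, and the 14 livers held 3 counts. No aorta overlapped any library of another tissue. Pooled over libraries, with counts divided by total counts and no TMM, Adipoq was 756-fold higher in aorta than in liver (95% exact counting interval 258 to 3669) and 16.9-fold higher than in skin (11.7 to 25.5). These intervals cover counting error only, and the ratios depend on the scaling: the TMM-scaled fit gave 283-fold for aorta over liver, a value that rests on 3 liver counts and on the prior count of the fit. How much fat was left on the vessels was not measured.

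Adig had the same order, with 74.8 to 231 CPM in aorta, 14 counts over all skins and 1 count over all livers. Its pooled level in aorta was 1109-fold that in liver, with a counting interval of 199 to 43861, and 16.5-fold that in skin (9.82 to 30.4). The TMM-scaled fit gave 268-fold for Adig in aorta over liver. Cfd ran from 60.5 to 269 CPM in aorta, from 0 to 98.7 CPM in skin and from 0 to 2.17 CPM in liver. Aorta and skin therefore overlapped for Cfd, although the pooled level was 5.06-fold higher in aorta (3.74 to 7.01). Retn ran from 34.5 to 160.4 CPM in aorta and from 0 to 70.6 CPM in skin, and had 3 counts over all livers. The pooled ratio of aorta to skin was 4.39 for Retn (2.86 to 7.08), and the TMM-scaled fit gave 8.15.

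Lep stood apart from the other secreted products. It had 12 counts over the 14 aortas, with at most 3 in a library and 0 in 8 of them, 1 count over all skins and 0 over all livers. For aorta over liver the counting interval of Lep started at 3.06, with no upper end because liver held 0 counts. Setting liver at a floor of 3 counts gave a ratio of 4.41. The ratio of aorta to skin was 2.76 with a counting interval of 0.408 to 118, so no difference was detectable at this depth.

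Pparg and Adrb3 were high in aorta and near the floor elsewhere. Pparg had 32.7 to 107 CPM in aorta, 0 to 15.5 CPM in liver and 0 to 30.5 CPM in skin, where 10 of 14 libraries held no count. Adrb3 had 27.4 to 100.0 CPM in aorta, 0 to 19 CPM in liver and 0 to 20.7 CPM in skin. No aorta overlapped a liver for Pparg or Adrb3. The pooled ratios of aorta to liver were 10.9 for Pparg (7.96 to 15.2) and 12.0 for Adrb3 (8.58 to 17.3). The TMM-scaled fit gave smaller folds, 6.33 for Pparg and 6.60 for Adrb3, below those intervals. For skin against liver the pooled ratios were 0.653 for Pparg (0.227 to 1.54) and 0.777 for Adrb3 (0.268 to 1.86), intervals that span 1.

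Rbp4, Cebpa and Car3 were not specific to the aorta. Rbp4 had 269 to 812 CPM in aorta, 18 to 186 CPM in skin and 3341 to 6671 CPM in liver, and the tissues did not overlap. Per 100 Alb counts, Rbp4 had 68.2 to 257.5 counts in aorta and 4.92 to 23.4 in skin, against 6.10 to 13.9 in liver. The ratio in skin thus spanned that of liver, and the ratio in aorta lay above it in every library. Cebpa had 37.0 to 136 CPM in aorta, 53.9 to 229 CPM in skin and 104 to 270.4 CPM in liver, with overlap between neighbouring tissues. Car3 had 1156 to 2592 CPM in aorta, 101 to 1190.0 CPM in skin and 308 to 2242 CPM in liver, and its aortas and livers overlapped over most of their range.

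**Figure D1:**
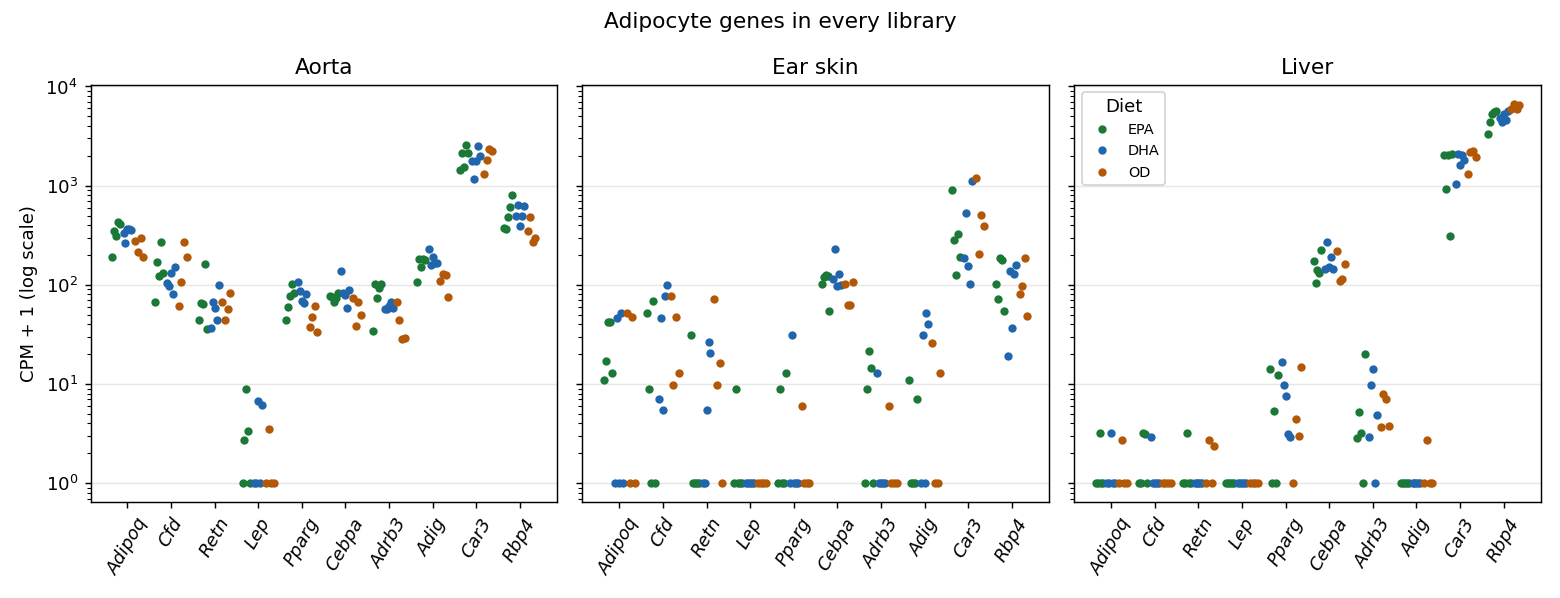
Level of each of the 10 genes in every library of aorta, ear skin and liver, as CPM + 1 on a log scale, with diets coloured and points at 1 standing for libraries with no count. Adipoq, Adig, Cfd and Retn lie between 34.5 and 434 CPM in aorta and at or below 2.21 CPM in liver, while Rbp4 is highest in liver, at 3341 to 6671 CPM.

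All 42 libraries were fitted together with edgeR (quasi-likelihood test, Benjamini-Hochberg adjusted p). In that fit 8 of 9 tested members differed between aorta and liver, where 66.1% of the 9912 genes tested passed. Adipoq, Cfd, Retn, Pparg, Adrb3 and Adig were higher in aorta, and Cebpa and Rbp4 lower. The members higher in aorta passed the count filter in aorta alone but not in liver alone or skin alone. Their direction against liver, and against skin below, is therefore not independent of the filter. The log2 difference, aorta minus liver, was -4.24 ± 0.18 for Rbp4 and -1.91 ± 0.14 for Cebpa (SE). Car3 missed the threshold (log2 aorta minus liver -0.53 ± 0.25, adjusted p = 0.0541). Its direction depended on the scaling: libraries scaled by totals alone gave 0.19 for Car3 and a median over all genes of 0.81, against 0.12 under TMM.

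Between aorta and skin, 8 of 9 members were called, all higher in aorta, where 62.8% of genes passed. Cebpa was the exception, at -0.05 ± 0.18. Its call changed with total counts alone, to -0.55 with an adjusted p of 0.00902, below a median of all genes of -0.42. Between skin and liver all 9 were called, where 71.2% of genes passed. Adipoq, Cfd, Retn and Adig were higher in skin and Pparg, Cebpa, Adrb3, Car3 and Rbp4 lower. All but Cebpa, Car3 and Rbp4 failed the count filter in skin alone and in liver alone. The calls of those failing members rest on few counts. Retn had 22 counts over all skins against 3 over all livers, and Pparg 6 against 44. The calls of Pparg and Adrb3 were lost with total counts alone (adjusted p = 0.415 and 0.576), and the call of Pparg also without the 3 libraries per tissue with high Xist (adjusted p = 0.333). Without those libraries Retn and Adig had no usable standard error, and neither had Retn without EPA skin 1 alone (1.97, adjusted p = 1.000). Most genes passed in each of these tissue contrasts, so a count of members called is not by itself a result about adipocyte genes.

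In the aorta, members were tested for each diet against OD. Pparg, Adig, Cebpa, Adrb3, Rbp4 and Adipoq had point estimates of 0.49 to 1.15 on the log2 scale with either fatty acid, while Cfd, Retn and Car3 had estimates from -0.57 to 0.26. Pparg and Adig rose with DHA past the adjusted threshold. No member was called with EPA by edgeR, where 0.275% of all genes were.

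Pparg had 107, 85.6, 68.4, 64.1 and 80.3 CPM in DHA aortas, against 36.3, 46, 59.9 and 32.7 CPM in OD aortas. Every DHA aorta lay above every OD aorta. The means were 81 ± 16.8 CPM in DHA aortas (SD, n = 5) and 43.7 ± 12.1 CPM in OD aortas (SD, n = 4), and the fitted log2 change was 0.82 ± 0.24 (SE, adjusted p = 0.0496). In EPA aortas Pparg had 43.1, 59.3, 76.1, 101 and 81 CPM, of which 3 lay above every OD aorta. The log2 change for EPA minus OD was 0.70 ± 0.24 (adjusted p = 0.164). The counts behind these levels were low, from 6 to 47 per aorta.

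Adig had 231, 158, 188, 165 and 166 CPM in DHA aortas, against 109, 128, 125 and 74.8 CPM in OD aortas. As for Pparg, the DHA and OD aortas did not overlap. The log2 change was 0.73 ± 0.19 (adjusted p = 0.0258). EPA aortas had 106, 181, 149, 182 and 178 CPM of Adig, and all but EPA aorta 1 lay above every OD aorta, with a log2 change of 0.56 ± 0.19 (adjusted p = 0.151). Without EPA aorta 1 that change was 0.66 and passed (adjusted p = 0.0372, with 0.0372 to 0.857 over 18 alternatives).

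These 2 calls among 9 members stand beside 4.88% of the 6538 aorta genes called for DHA minus OD, 280 higher and 39 lower. Every DHA aorta lay above every OD aorta in 5.38% of genes, and in 2 of 9 members. This separation rests on TMM: in CPM of all counts without it, Pparg had 63.4 to 95.6 CPM in DHA aortas, against 33.4 to 72.5 CPM in OD aortas, which overlapped. With total counts alone the median of all genes moved to -0.25, from -0.05 with TMM, and neither gene was called (Pparg 0.60, adjusted p = 0.148; Adig 0.51, adjusted p = 0.123). Both calls were also lost without OD aorta 4 (Pparg 0.67, adjusted p = 0.223; Adig 0.56, adjusted p = 0.162), without DHA aorta 1 (adjusted p = 0.126 and 0.0729) and without DHA aorta 3 (adjusted p = 0.0569 and 0.0545). Adig alone was lost without OD aorta 3 (adjusted p = 0.0511). Pparg alone was lost without OD aorta 1, OD aorta 2, DHA aorta 2 or DHA aorta 5 (adjusted p = 0.0768, 0.0906, 0.0931 and 0.0835). DHA aorta 1 is one of the libraries with high Xist. Without the libraries of high Xist, Pparg was lost (0.72, adjusted p = 0.0970) and Adig kept its call (0.65, adjusted p = 0.0433). Over 18 alternatives the adjusted p ran from 0.0204 to 0.520 for Pparg and from 0.0060 to 0.467 for Adig.

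Cebpa, the partner of Pparg in adipocyte differentiation, had 136, 82.3, 77.9, 57.7 and 88.1 CPM in DHA aortas, against 72.6, 37.0, 66.7 and 48.3 CPM in OD aortas. All but DHA aorta 4 lay above every OD aorta, and the log2 change was 0.71 ± 0.23 (adjusted p = 0.0880). Without DHA aorta 4 it was 0.85 and passed (adjusted p = 0.0380, with 0.0380 to 0.402 over 18 alternatives). In EPA aortas Cebpa was tightly grouped, at 65.6 to 81 CPM, with a log2 change of 0.50 ± 0.23 (adjusted p = 0.381).

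Adrb3 gave the largest estimate for EPA among the members. It had 33.2, 100.0, 73.4, 92 and 100.0 CPM in EPA aortas, against 66.6, 43.4, 27.4 and 28.1 CPM in OD aortas. EPA aorta 1 was among the low libraries and OD aorta 1 among the high ones, so the groups overlapped. The log2 change was 1.15 ± 0.26 and just missed the threshold (adjusted p = 0.0561). It passed with DESeq2 (adjusted p = 0.0102) and without EPA aorta 1 (1.31, adjusted p = 0.00430), and also without OD aorta 1 (1.30, adjusted p = 0.0245) or OD aorta 2 (1.28, adjusted p = 0.0496). Without the libraries of high Xist, Adrb3 passed as well (1.28, adjusted p = 0.0240). Over 18 alternatives its adjusted p ran from 0.000348 to 0.764. In DHA aortas it was narrow, at 56 to 65.7 CPM, with a log2 change of 0.69 ± 0.27 (adjusted p = 0.179).

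Adipoq had 189, 351, 307, 434 and 412 CPM in EPA aortas and 335, 260.2, 369, 364 and 352 CPM in DHA aortas, against 278, 213, 294 and 189 CPM in OD aortas. With each fatty acid 4 of 5 libraries lay above every OD aorta. The log2 changes were 0.51 ± 0.20 for EPA (adjusted p = 0.239) and 0.49 ± 0.20 for DHA (adjusted p = 0.176). Without EPA aorta 1, the EPA change was 0.65 and passed (adjusted p = 0.0284, with 0.0284 to 0.819 over 18 alternatives). For Rbp4 the values were 372, 363, 479.9, 611 and 812 CPM in EPA aortas and 489, 642, 393, 496 and 622 CPM in DHA aortas, against 351, 483, 269 and 293 CPM in OD aortas. Its log2 changes were 0.60 ± 0.23 for EPA (adjusted p = 0.230) and 0.59 ± 0.23 for DHA (adjusted p = 0.159). With no filter on low counts Rbp4 passed for both (adjusted p = 0.0239 and 0.0208), and over 18 alternatives each the adjusted p reached 0.951 for EPA and 0.824 for DHA.

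Adipsin, resistin and carbonic anhydrase 3 did not follow this pattern. Cfd had 66.4, 168, 121, 269 and 129 CPM in EPA aortas and 104, 95.5, 131, 80.2 and 150.3 CPM in DHA aortas, against 60.5, 106, 269 and 192 CPM in OD aortas. All DHA values lay within the OD range, and the log2 change was -0.57 ± 0.32 for DHA (adjusted p = 0.370) and -0.12 ± 0.31 for EPA (adjusted p = 0.950). OD aorta 3 had the highest OD value, 269 CPM. Without OD aortas 3 and 4, a choice made after seeing the data, the estimates had the opposite sign, 0.28 for DHA and 0.73 for EPA. Retn ran from 34.5 to 160.4 CPM in EPA aortas and from 35.6 to 98.5 CPM in DHA aortas, against 43.4 to 81.1 CPM in OD aortas, with log2 changes of 0.26 ± 0.35 and -0.04 ± 0.36. The EPA maximum was a single library, EPA aorta 4, and without it the EPA estimate was -0.24. Car3 averaged 1966 ± 469.7 CPM in EPA aortas and 1842 ± 488 CPM in DHA aortas (SD, n = 5 each), against 1916 ± 476 CPM in OD aortas (SD, n = 4). Its log2 changes were 0.03 ± 0.22 for EPA and -0.06 ± 0.22 for DHA, and the interval for DHA ran from -0.52 to 0.40.

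**Figure D2:**
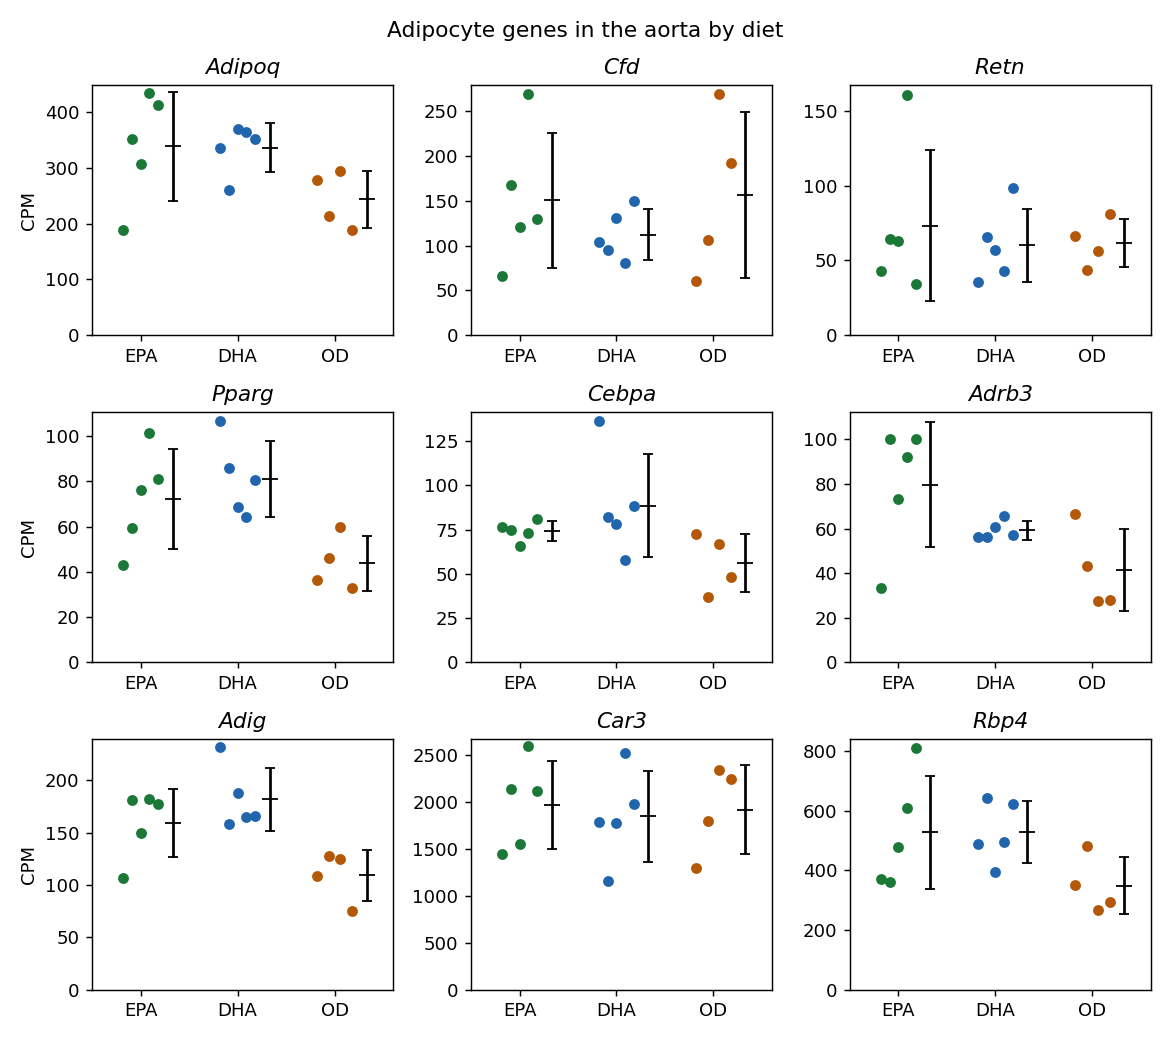
CPM of the 9 tested genes in each aorta, by diet, with the mean and SD beside the points on linear axes that start at 0. For Pparg and Adig the 5 DHA aortas sit above the 4 OD aortas, and for Cfd the DHA aortas sit within the OD range of 60.5 to 269 CPM.

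**Figure D3:**
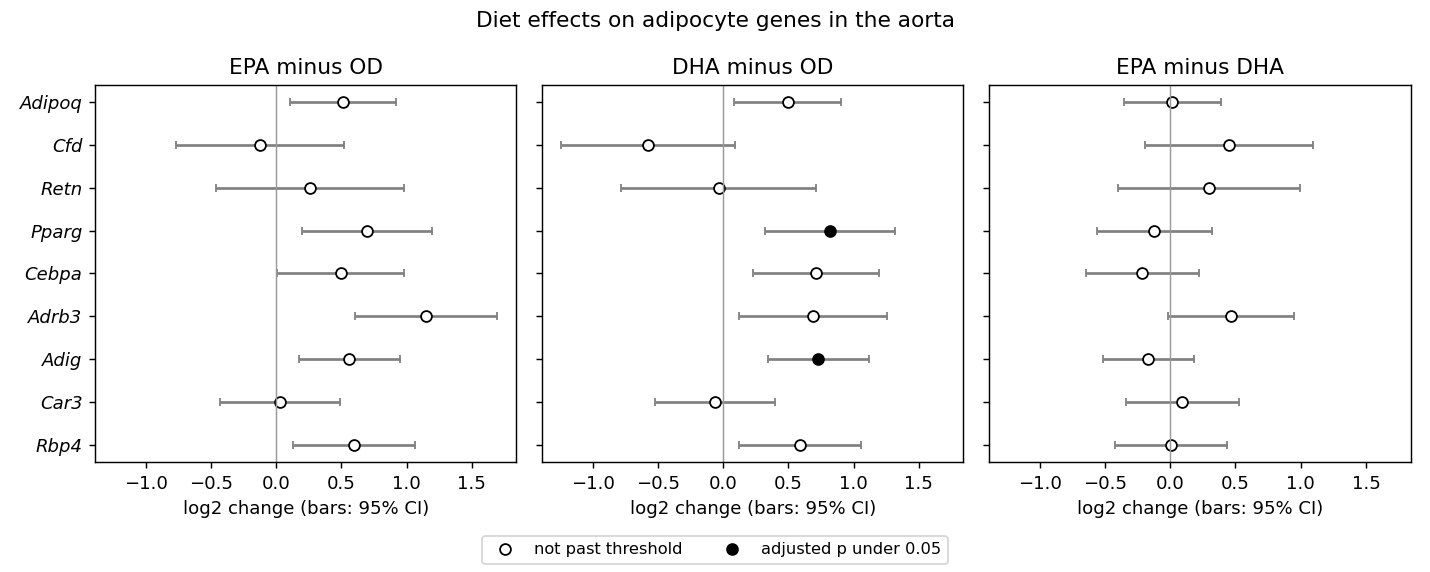
Log2 change of each tested gene in the aorta for the 3 diet comparisons, with 95% confidence intervals of the edgeR fit and filled points past the adjusted threshold. Pparg (0.82) and Adig (0.73) are filled for DHA minus OD, and every interval for EPA minus DHA spans 0.

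For EPA minus OD, 0 of 9 members were called by edgeR, 1 by DESeq2 (Adrb3) and 6 had an unadjusted p under 0.05. Over all genes edgeR called 18 and DESeq2 186. In 1.9% of all genes, and in 0 of 9 members, every EPA aorta lay above every OD aorta. For DHA minus OD, 6 of 9 members had an unadjusted p under 0.05. Over all 6538 genes, 822 had one for EPA minus OD and 1147 for DHA minus OD. The comparisons of EPA and of DHA share the OD aortas, so their estimates are not independent.

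EPA and DHA, which differ in chain length and in the number of double bonds, were set against each other at the same stated dose and time in 9 members of the aorta. None was called by edgeR or DESeq2, none had an unadjusted p under 0.05, and 0% of all genes were called (226 with an unadjusted p under 0.05). Adrb3 had the largest estimate, 0.47 ± 0.23 for EPA minus DHA, with a 95% interval of -0.02 to 0.95. For Adipoq the estimate was 0.02 with an interval of -0.35 to 0.39, and for Rbp4 0.01 with -0.42 to 0.44. Pparg was at -0.12 (-0.56 to 0.32), Adig at -0.17 (-0.52 to 0.18) and Cebpa at -0.21 (-0.65 to 0.22). Cfd was at 0.45 (-0.19 to 1.09), Retn at 0.29 (-0.40 to 0.99) and Car3 at 0.09 (-0.34 to 0.53). Differences within these intervals are not excluded.

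Other genes of the adipocyte were read beside the members, from lists that were chosen with earlier results of these data known. Of 28 tested genes of white adipocytes, 25 had positive estimates with DHA, and the 28 ran from -0.86 to 1.32 on the log2 scale. Their median log2 change was 0.74, against -0.05 over all aorta genes. Beside 4.88% of all aorta genes called (280 higher and 39 lower of 6538), 12 of the 28 rose and 0 fell. They included the triglyceride synthesis genes Agpat2 (1.08 ± 0.16), Gpd1 (1.32 ± 0.25) and Dgat2 (0.75 ± 0.16), the insulin-responsive glucose transporter Slc2a4 (1.14 ± 0.25), the fatty acid transporter Cd36 (0.74 ± 0.18), Pck1 (0.81 ± 0.21), which makes glycerol backbone in fat, and the lipid droplet coat gene Plin1 (0.73 ± 0.21). The fatty acid carrier Fabp4 (0.73 ± 0.23, adjusted p = 0.0805) and the droplet gene Cidec (0.48 ± 0.23, adjusted p = 0.283) had positive estimates that did not pass. With EPA, 1 of the 28 rose, Agpat2 (1.00 ± 0.16), and the median was 0.61.

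Of 19 tested genes of brown adipocytes, 8 rose and 0 fell with DHA, with a median of 0.83, beside the same 4.88% of all genes. Ucp1 averaged 1880.1 CPM in DHA aortas and 1534 CPM in EPA aortas, against 791 CPM in OD aortas, with log2 changes of 1.25 ± 0.26 for DHA (adjusted p = 0.00803) and 0.96 ± 0.26 for EPA (adjusted p = 0.0724). The other named brown fat genes that rose with DHA were Otop1 (1.46 ± 0.22), Letmd1 (1.06 ± 0.19), Cox8b (1.08 ± 0.21), Cox7a1 (1.21 ± 0.24) and Fabp3 (0.90 ± 0.20). Otop1 was the 1 gene of the list called with EPA (1.06 ± 0.22). Ucp1 was at 430 to 2414 CPM in every aorta, at most 6.38 CPM in liver and at most 75.7 CPM in skin.

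The receptors for the members' products showed no called change. Of 8 tested receptor genes 0 were called with either fatty acid. The adiponectin receptor gene Adipor2 had 0.49 ± 0.16 for DHA (adjusted p = 0.0897) and 0.50 ± 0.16 for EPA (adjusted p = 0.141), and Adipor1 had 0.25 ± 0.16 and 0.16 ± 0.16. Cdh13, which encodes T-cadherin, the adiponectin-binding protein of the vessel wall, had -0.41 ± 0.19 for DHA and -0.19 ± 0.19 for EPA. The leptin receptor gene Lepr was low, at 21.2 CPM in DHA aortas and 18.7 CPM in EPA aortas, against 24.3 CPM in OD aortas. None of 7 tested preadipocyte genes was called, and their median was -0.51 with DHA. Pdgfra, a marker of adipocyte progenitors and fibroblasts, was at -0.51 ± 0.22 (adjusted p = 0.227), and Dlk1 was too low to test.

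Markers of other cells of the aorta were set beside all aorta genes, of which 4.88% were called for DHA (280 higher and 39 lower) and 0.275% for EPA. Smooth muscle markers (8 of 8 detected in every aorta) summed to 8382 to 13114 CPM in EPA aortas and 8514 to 10523 CPM in DHA aortas, against 11621 to 15764 CPM in OD aortas. The DHA and OD sums did not overlap. All 8 genes had negative estimates with both fatty acids. Their median log2 change was -0.54 for DHA and -0.34 for EPA, against -0.05 and -0.02 over all genes. Of these 8 genes 1 fell past the threshold with DHA, the smoothelin gene Smtn (-0.60 ± 0.16, adjusted p = 0.0335). Of 7 endothelial markers 1 fell with DHA, the angiopoietin receptor gene Tek (-1.04 ± 0.29, adjusted p = 0.0402). Smtn and Tek were named after their values were seen. None of 6 fibroblast markers or 5 tested macrophage markers was called with either fatty acid. White adipocyte genes summed to 14029.9 to 28691 CPM in EPA aortas and 22149 to 26124 CPM in DHA aortas, against 10779.9 to 18422 CPM in OD aortas. The same list summed to 5117 to 12982 CPM in OD livers, so its sum was not specific to the aorta. In such bulk samples, fewer cells of a type and less RNA per cell cannot be told apart, and the part of cell makeup in the changes of Pparg and Adig was not tested. Skeletal muscle markers summed to 33.2 to 973 CPM in EPA aortas and 13.2 to 684 CPM in DHA aortas, against 30.3 to 125 CPM in OD aortas. They were high in EPA aorta 2, DHA aorta 3 and DHA aorta 5, and their part in the level of Car3 was not tested.

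Across the 14 aortas the members did not all vary together. Correlations of log2 CPM were computed for all 36 pairs of the 9 tested genes, with permutation p-values from 100000 resamples adjusted over the 36 pairs. They ran from -0.20 to 0.88 with a median of 0.30, and 7 pairs had an adjusted p under 0.05 for Pearson's r, of which 3 also had one for Spearman's rho. Pparg and Adig were the closest pair (Pearson's r = 0.88, permutation p = 3.0e-05, adjusted p = 0.00108; Spearman's rho = 0.77, p = 0.00194). Leaving out the 2 aortas farthest from the median of Pparg gave r = 0.79. Removing the diet means gave 0.74, so the pair also varied together within diets.

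Adipoq followed Adig (r = 0.81, p = 0.000370, adjusted p = 0.00666; rho = 0.81, p = 0.00061), Adrb3 (r = 0.78, p = 0.00138, adjusted p = 0.0166; rho = 0.71, p = 0.00584) and Pparg (r = 0.74, p = 0.00277, adjusted p = 0.0249; rho = 0.63, p = 0.0171). Without EPA aorta 1 and OD aorta 4, the lowest libraries for Adipoq, these were 0.64, 0.61 and 0.56. With Retn, Adipoq had r = 0.18 (rho = -0.02, permutation p = 0.545 for r), and with Cfd r = 0.31 (rho = 0.33, permutation p = 0.282). Cfd instead followed Car3 (r = 0.68, p = 0.00765, adjusted p = 0.0393; rho = 0.68, p = 0.00904), a relation of 0.68 with the diet means removed and 0.55 without OD aorta 3 and EPA aorta 4. Pparg with Rbp4 (r = 0.68; rho = 0.76) and Adrb3 with Adig (r = 0.68; rho = 0.56) were the other pairs with an adjusted p under 0.05 (0.0393 each). With the diet means removed, these were 0.46 and 0.61. These pairs share libraries and depth.

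**Figure D4:**
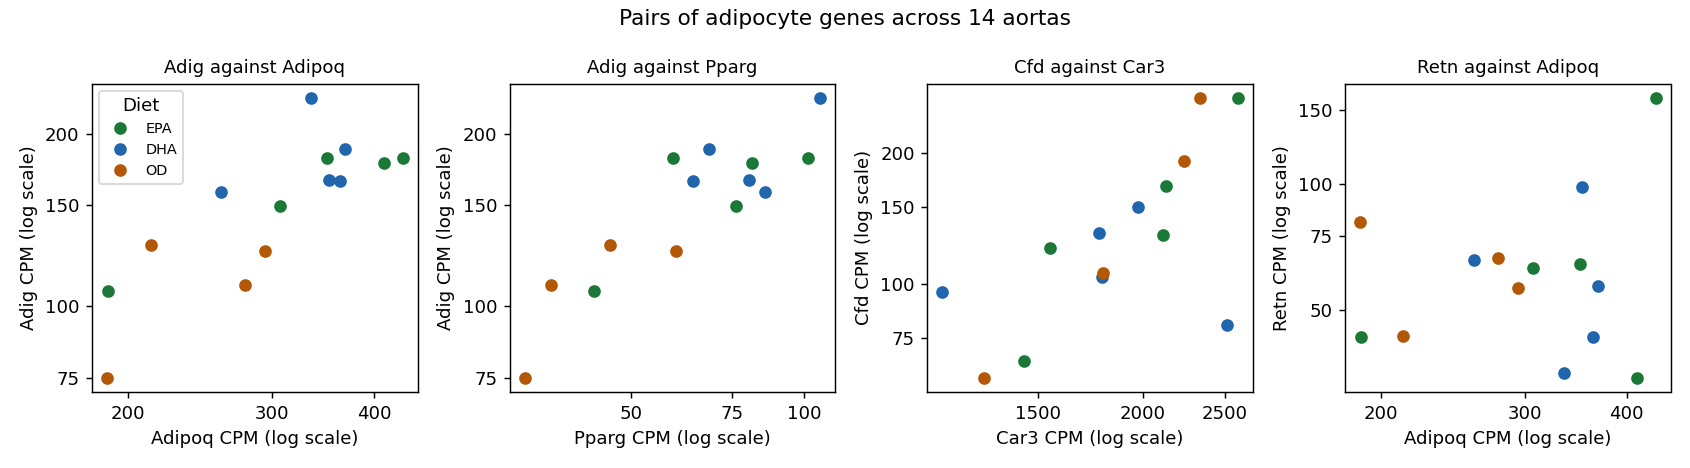
CPM of 4 pairs of genes in the 14 aortas on log scales, with diets coloured. Adig rises with Adipoq (r = 0.81) and with Pparg (r = 0.88) and Cfd with Car3 (r = 0.68), while Retn is scattered against Adipoq (r = 0.18).

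Of 6537 other genes tested in the aorta, the 5 most like Adipoq by Pearson's r over the 14 aortas were Gpat4 (0.94), Tomm40 (0.91), Mgst1 (0.90), Kcnk3 (0.89) and Slc27a2 (0.89). Gpat4 encodes a glycerol-3-phosphate acyltransferase of triglyceride synthesis and Tomm40 the protein import pore of mitochondria. Mgst1 encodes a microsomal glutathione transferase, Kcnk3 a potassium channel and Slc27a2 an acyl-CoA synthetase that activates fatty acids. With the diet means removed these were 0.93, 0.91, 0.87, 0.87 and 0.89. The values rank the genes and no test was made of them.

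In the liver, 3 members could be tested and none was called by edgeR or DESeq2. Rbp4 had 3341, 4371, 5324, 5471 and 5678 CPM in EPA livers and 4803, 4422, 5309.9, 4541 and 5714 CPM in DHA livers, against 5894, 6671, 5925 and 6515 CPM in OD livers. Every EPA and every DHA liver lay below every OD liver. Means were 4837 ± 974.8 CPM in EPA livers and 4958 ± 543 CPM in DHA livers (SD, n = 5 each), against 6251 ± 399.9 CPM in OD livers (SD, n = 4). The log2 changes were -0.37 ± 0.17 for EPA (adjusted p = 0.726) and -0.33 ± 0.17 for DHA (adjusted p = 0.829). The EPA change of Rbp4 was the 1 member value in liver with an unadjusted p under 0.05.

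All EPA livers lay below all OD livers in 1.14% of the 5018 genes tested and all DHA livers in 1.16%, and 0% of genes were called for either diet (336 and 309 with an unadjusted p under 0.05; 4 and 2 called by DESeq2). The separation of Rbp4 again depended on the scaling. In CPM of all counts without TMM it had 3759 to 6028 CPM in EPA livers and 4424 to 5979 CPM in DHA livers, against 5327 to 6563 CPM in OD livers, and the groups overlapped. With total counts alone the estimates were -0.24 and -0.19, while the medians of all liver genes were 0.15 and 0.15. EPA and DHA livers differed in Rbp4 by -0.04 for EPA minus DHA, with an interval of -0.38 to 0.31. For Car3 this difference was -0.21 (-0.99 to 0.57) and for Cebpa -0.20 (-0.71 to 0.31), and 0% of genes were called between them (184 with an unadjusted p under 0.05).

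**Figure D5:**
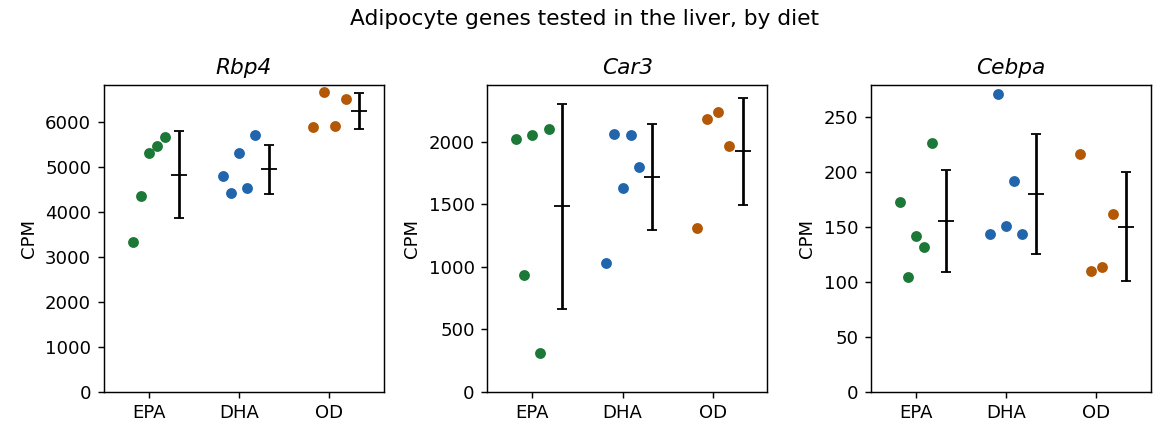
CPM of Rbp4, Car3 and Cebpa in each liver by diet, with the mean and SD beside the points on axes that start at 0. Rbp4 is below 5894 CPM in all EPA and DHA livers, and 1 EPA liver has 308 CPM of Car3.

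Car3 had 2018, 933, 2054, 308 and 2105 CPM in EPA livers and 1028, 2064, 1629, 2052 and 1802 CPM in DHA livers, against 1309, 2185, 2242 and 1963 CPM in OD livers. EPA liver 4 was the lowest, with 145 counts. The log2 changes were -0.37 ± 0.39 for EPA (adjusted p = 0.923) and -0.17 ± 0.39 for DHA (adjusted p = 0.974). Cebpa ran from 104 to 226 CPM in EPA livers and from 144 to 270.4 CPM in DHA livers, against 109 to 216 CPM in OD livers. Its log2 changes were 0.04 ± 0.25 for EPA (interval -0.49 to 0.58) and 0.24 ± 0.25 for DHA (interval -0.29 to 0.78). Pparg had at most 10 counts in a liver and was not tested there: 15 counts over EPA livers and 16 over DHA livers, against 13 over OD livers.

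The estimates for Rbp4 were positive in aorta and negative in liver with both fatty acids, and this difference was tested in the fit of all libraries. The change in aorta minus the change in liver was 1.03 ± 0.40 on the log2 scale for EPA (adjusted p = 0.617) and 1.00 ± 0.40 for DHA (adjusted p = 0.489). Neither passed. No member was called in this comparison by edgeR or DESeq2, and 1 member, Rbp4, had an unadjusted p under 0.05 in each. Over all genes 0.0404% were called for EPA and 0.0202% for DHA. For Cebpa the difference was 0.51 ± 0.35 for EPA and 0.55 ± 0.35 for DHA, and for Car3 0.47 ± 0.62 and 0.18 ± 0.62.

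In ear skin, whose libraries were the shallowest, 3 members were tested and none was called by edgeR or DESeq2; none had an unadjusted p under 0.05. Of the 2133 genes tested, 0% were called in any comparison (89, 46 and 46 with an unadjusted p under 0.05 for EPA minus OD, DHA minus OD and EPA minus DHA). Car3 had 909, 279, 124, 326 and 192 CPM in EPA skins and 186, 534, 155, 101 and 1106 CPM in DHA skins, against 1190.0, 202, 505 and 391 CPM in OD skins. The highest libraries of the diets were EPA skin 1, DHA skin 5 and OD skin 1. Of these, only EPA skin 1 is flagged below as far from its group. The log2 changes were -0.66 ± 0.60 for EPA (interval -1.91 to 0.59) and -0.59 ± 0.61 for DHA (interval -1.88 to 0.69). Each estimate turned on 1 library. Without OD skin 1 they were 0.07 for EPA and 0.12 for DHA, without EPA skin 1 the EPA change was -1.33, and without DHA skin 5 the DHA change was -1.32.

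Cebpa averaged 104 ± 29.6 CPM in EPA skins and 133 ± 54.8 CPM in DHA skins (SD, n = 5 each), against 82.5 ± 24.6 CPM in OD skins (SD, n = 4). Its log2 changes were 0.23 ± 0.36 and 0.58 ± 0.35. Rbp4 averaged 118 ± 60.4 CPM in EPA skins and 94.9 ± 63.6 CPM in DHA skins, against 102 ± 58.2 CPM in OD skins, from 3 to 16 counts per library. The other members were counted only here and there. Adipoq had 10 counts over EPA skins and 5 over DHA skins, against 13 over OD skins, and Cfd had 11 and 13, against 20. OD skin 1 held the most counts of the 14 skins for 6 members: Adipoq (10), Cfd (15), Retn (14), Adig (5), Car3 (236) and Rbp4 (16). It was also the second deepest skin library, and by CPM it was the highest skin for Retn (70.6 CPM) and Car3 (1190.0 CPM) only. For Cfd it had 75.6 CPM against a highest skin of 98.7, for Adig 25.2 CPM against 50.5 and for Rbp4 80.7 CPM against 186.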

How the data were processed

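RNA of 42 libraries (aorta, liver and ear skin, 3 diets) was prepared from 10 ng of total RNA with a QIAseq UPX 3′ kit, per the labels' protocols. The deposited table holds whole-number counts per gene, per the file headers. GRCm38.p6 is the build, and edgeR a tool, per the submitters' processing notes. No source used here gives the aligner, the counter, the use of strand or the collapsing of molecular tags. The deposited normalised table was not used.

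Groups were taken from the diet and tissue labels. Replicate numbers follow the order of deposition and were not used to pair samples. No 2 libraries of a group were duplicates (lowest chi-square per degree of freedom 1.46 over 78 pairs). Each tissue was fitted alone with edgeR 4.0.16 in R 4.3.3: genes were kept by filterByExpr (minimum count 10), libraries scaled by TMM, diets contrasted by quasi-likelihood F tests, and genes called at a Benjamini-Hochberg adjusted p under 0.05 over all genes tested. Tissue contrasts and the comparison of diet effects between aorta and liver used a fit of all 9 groups (9912 genes). A standard error is the size of the log2 change over the root of its F value. Libraries of a group were taken as separate mice, and tissues as independent, because the labels tie no library to a mouse; high Xist fell on the same numbers in every tissue, and whether tissues share mice was not tested; the p-values measure the spread between libraries. Scripts were tested on simulated data. Precision is limited by depth (40157 to 768532 counts per library), by the spread between libraries and by the 4 to 5 libraries per group.

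Correlations used log2 CPM with a prior count of 2 and 100000 permutations (two-sided). Gene models are from GENCODE M21 and promoters from RefSeq. All 10 members were described whatever their result; from the lists, up to 6 genes past the threshold with the smallest p were named, plus 10 chosen genes whatever their result. The list of other adipokines is not reported here. The members and lists were chosen with earlier results of these data known. Alternatives were DESeq2 1.42.0, its size factors, total counts alone, no filter, thinned counts, 2-group fits, a common fit, leaving out each library, and leaving out the 3 libraries per tissue with Xist over 200 CPM (EPA 1, EPA 5 and DHA 1).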

Additional observations from a re-analysis of the deposited data

Results flagged for a closer look

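Dixon's test for a library far from the others of its group marked 3 of the 45 groups of tested members, where chance marks about 1 in 20. Retn had 160.4 CPM (68 counts) in EPA aorta 4, while the other EPA aortas reached at most 64.4 CPM. Car3 had 909 CPM (90 counts) in EPA skin 1, against at most 326 CPM in the other EPA skins. Cebpa had 229 CPM (15 counts) in DHA skin 2, against at most 126 CPM in the other DHA skins. The cause was not tested for any of them.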

How the results depend on the processing

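Of 2089 values of single members under the alternatives, 2018 kept their direction and their side of the threshold or moved by less than their error, 34 lost the call, 17 gained it, 20 moved further and 0 reversed a called direction. For DHA minus OD in aorta, the 2 members called became 0 with total counts alone, 0 with thinned counts, 0 in the common fit, 3 with no filter, 1 without the libraries of high Xist and 0 without OD aortas 3 and 4 (an alternative chosen after seeing the data), and 0 to 3 when single libraries were left out. Adig was called in 10 of 18 alternatives (adjusted p 0.0060 to 0.467) and Pparg in 6 of 18 (0.0204 to 0.520). For EPA minus OD in aorta, the 0 members called became 1 with DESeq2, 2 with no filter and 1 without the libraries of high Xist, and 0 to 3 when single libraries were left out; Adrb3 was called in 6 of 18 alternatives. Thinned counts gave 3 members called for aorta minus liver, 3 for skin minus liver and 3 for aorta minus skin, of 4 members left in that test. No paired analysis was made because the labels give no replicate numbers: those used here follow the order of deposition. High Xist fell on the same numbers in every tissue, and pairing by these numbers was not tested. Skin libraries were the shallowest, at 40157 to 220488 counts, and 7 of 10 members were too low to test there. As many were too low to test in liver, whose libraries were deeper.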
